A study of Homo sapiens with 12 samples.

Results

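The transcripts of SR proteins, heterogeneous nuclear ribonucleoproteins (hnRNPs), TRA2 proteins and the kinases that phosphorylate them were followed in MOLT4 cells, an established line of human T-cell acute lymphoblastic leukemia. Cells were exposed for 6 h to 250 nM SNS-032, 250 nM THAL-SNS-032 or 250 nM NVP-2, or to 0.1% DMSO as vehicle, with 3 libraries in each of the 4 groups. SNS-032 is a small-molecule inhibitor of several cyclin-dependent kinases including CDK9, THAL-SNS-032 carries that inhibitor joined through a linker to a thalidomide-type cereblon ligand, and NVP-2 is another CDK9 inhibitor. Members were the genes whose symbol is SRSF, CLK1 to CLK4, SRPK, TRA2A, TRA2B or begins with HNRNP, without hyphenated names and pseudogenes. The rule matched 47 names, of which 2 hyphenated names and 4 pseudogenes were set aside, and left 41 members of 23619 genes: 12 SR proteins, 2 TRA2 proteins, 20 hnRNPs and 7 kinases. Of these, 38 averaged at least 1 FPKM across all libraries and were tested among 11381 such genes. The symbols HNRPDL and HNRPLL, older names of hnRNP genes, do not match the rule.

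SR proteins carry RNA recognition motifs and a tail rich in arginine and serine, bind exonic enhancers and recruit the spliceosome. hnRNPs coat nascent RNA and often act as silencers of nearby splice sites, so the balance of both families is known to set the outcome of many alternative exons. SRPKs phosphorylate the arginine and serine rich tail mainly in the cytoplasm, and CLKs do so in the nucleus. Many of these genes also control their own transcripts through exons or retained introns that lead to decay. The authors deposited gene-level FPKM, a density of fragments per length of transcript, which cannot show such isoforms.

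The values are on the scale the authors set across libraries, on which the ERCC spike-in RNAs added at lysis were level: their library medians lay between -0.064 and 0.011 (log2) from the DMSO mean. The medians of all tested genes lay between -2.32 and -1.68 with SNS-032, between -1.96 and -1.80 with THAL-SNS-032 and between -2.61 and -2.45 with NVP-2, against -0.083 to 0.098 in DMSO. Within SNS-032, replicate 1 was the lowest library at -2.32, beside -1.68 and -1.77 in replicates 2 and 3. The deposited-scale counts between compounds are also given without that library. By a narrower margin, replicate 1 was also the lowest library with THAL-SNS-032 (-1.96), with NVP-2 (-2.61) and in DMSO (-0.083). The cause was not tested. All 14 markers of the T lineage and MOLT4 reached 1 FPKM in DMSO, and their sum was 828 to 1384 FPKM with SNS-032, 1479 to 1653 with THAL-SNS-032 and 715 to 866 with NVP-2, against 4427 to 5511 in DMSO. None of 6 myeloid and none of 5 erythroid and megakaryocytic markers reached 1 FPKM in DMSO, nor did 4 of 6 B-lineage and 4 of 5 stromal and epithelial markers. The summed myeloid markers were 2.06 to 3.81 FPKM with SNS-032, 4.38 to 5.71 with THAL-SNS-032 and 0.708 to 0.945 with NVP-2, against 1.04 to 1.20 in DMSO, and their part in the results was not tested. In bulk RNA, fewer cells of a type and less RNA per cell cannot be told apart. The table gives no counts, and sequencing depth is therefore unknown. Separate cultures are not stated for the replicates, and p-values then measure only a spread between libraries that may be technical.

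Promoter sequences are shown for members at the extremes of the responses described below, or holding a motif that was searched. They come from RefSeq (GRCh38.p14), run 5′ to 3′ on the strand of the gene and end at the base before a listed start. Each shows 100 bases. Where a gene has several listed starts, a start with most matches in these bases is shown, with matches on each strand counted apart. Capitals mark TATAAA, the core promoter TATA element, CCAAT, the box bound by NF-Y, and TCGCGAG, on either strand. Overlapping matches are merged, such as TCGCGAG and its reverse complement. SRSF3 lies at chr6:36594262-36594361 (plus strand), SRSF7 at chr2:38751362-38751461 (minus strand) and HNRNPAB at chr5:178204433-178204532 (plus strand), and each holds TATAAA with its first base 30, 27 or 29 bases before the start, in that order.
SRSF3: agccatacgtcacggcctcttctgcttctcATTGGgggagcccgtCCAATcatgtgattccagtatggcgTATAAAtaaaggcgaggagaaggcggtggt
SRSF7: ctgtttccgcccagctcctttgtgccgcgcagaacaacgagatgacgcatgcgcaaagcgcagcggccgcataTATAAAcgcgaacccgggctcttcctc
HNRNPAB: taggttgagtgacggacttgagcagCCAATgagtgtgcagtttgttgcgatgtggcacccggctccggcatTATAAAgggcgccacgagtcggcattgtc

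The next sequences hold TCGCGAG, for SRSF4 at chr1:29181901-29182000 (minus strand), SRSF10 at chr1:23980328-23980427 (minus strand) and HNRNPK at chr9:83980616-83980715 (minus strand). Another listed start of HNRNPK, not shown, has CCAAT with first bases 99 and 58 bases before it.
SRSF4: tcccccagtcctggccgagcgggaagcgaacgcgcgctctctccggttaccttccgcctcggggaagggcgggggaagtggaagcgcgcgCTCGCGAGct
SRSF10: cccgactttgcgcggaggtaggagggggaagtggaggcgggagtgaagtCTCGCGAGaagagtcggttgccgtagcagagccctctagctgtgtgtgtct
HNRNPK: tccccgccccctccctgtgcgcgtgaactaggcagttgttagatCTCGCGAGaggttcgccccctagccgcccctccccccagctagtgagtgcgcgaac

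CLK1, at chr2:200864659-200864758 (minus strand), holds none of the searched motifs, and CLK3, at chr15:74608272-74608371 (plus strand), holds CCAAT.
CLK1: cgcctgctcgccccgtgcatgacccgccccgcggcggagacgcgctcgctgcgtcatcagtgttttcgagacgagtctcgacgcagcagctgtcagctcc
CLK3: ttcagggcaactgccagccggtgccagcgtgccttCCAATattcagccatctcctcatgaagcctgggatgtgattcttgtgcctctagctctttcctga

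Of the 41 members, 38 have a listed promoter, and SRSF2, HNRNPA1 and TRA2A are not in the table. Searching 250 bases before every listed start on both strands, TATAAA was found in 7 of these 38 members (18.4%), against 13.0% of 27305 genes, and CCAAT in 18 (47.4%), against 37.0%. TCGCGAG was found in SRSF4, SRSF10, HNRNPH3, HNRNPK and HNRNPUL1 (13.2%), against 2.42% of genes, and CCGGAAG, an ETS-type motif, in 4 members (10.5%), against 10.2%. AAGATGGC, a YY1-type motif, was found in none of the 38, against 1.64% of genes, and neither was the palindromic NRF1 motif, against 1.28%. With TATAAA restricted to the gene's strand and a first base 40 to 20 bases before the start, 4 members (10.5%) held it, SRSF3, SRSF7, HNRNPAB and SRPK3, against 2.92% of genes; this window was chosen after the values were seen. These matches describe letters and not binding. The 27305 genes were not restricted to expressed genes. They were also not matched to the members in number of listed starts, and each start adds a possible match.

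In DMSO the group was abundant. The median DMSO level of the 38 tested members was 342 FPKM, against 28.0 FPKM over all tested genes, and 33 members were at 100 FPKM or more. HNRNPA1, a repressor of many exons, averaged 2526 FPKM in DMSO and ranked 98th of all genes. Among the members it was followed by HNRNPA2B1 at 1447 FPKM and HNRNPH1 at 1103 FPKM, while CLK4 was lowest of the tested members at 23.4 FPKM. Together the 41 members held 0.432% ± 0.0159 of the summed gene FPKM for SNS-032, 0.406% ± 0.0118 for THAL-SNS-032 and 0.458% ± 0.0137 for NVP-2, against 0.564% ± 0.0329 in DMSO (SD, n = 3).

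The comparisons with DMSO asked how far each compound lowered these transcripts within 6 h. All 38 tested members fell with every compound, by limma with trend on log2(FPKM + 1) and a Benjamini-Hochberg adjusted p under 0.05, and no member's libraries overlapped DMSO with any compound. Of all tested genes, the share that fell was 94.6% for SNS-032, 94.8% for THAL-SNS-032 and 97.1% for NVP-2, so nearly every tested gene fell. No member rose, beside 1.54%, 1.37% and 0.448% of all tested genes in the same order. The share of all tested genes that lay below DMSO without overlap was 94.8% for SNS-032, 95.9% for THAL-SNS-032 and 97.8% for NVP-2. The median change of the members was -1.91 for SNS-032, -1.90 for THAL-SNS-032 and -2.73 for NVP-2, beside -1.92, -1.90 and -2.54 over all tested genes in the same order. Single members ranged from -4.33 to -0.76 with SNS-032, from -4.60 to -1.04 with THAL-SNS-032 and from -5.54 to -1.83 with NVP-2. On this scale the medians of members and of all genes were close, and single members were spread widely around them. The all-gene medians depended on the value added before the logarithm. They were -2.19, -2.14 and -2.97 with 0.1 FPKM and -1.40, -1.39 and -1.82 with 5 FPKM, in the same order.

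**Figure D1:**
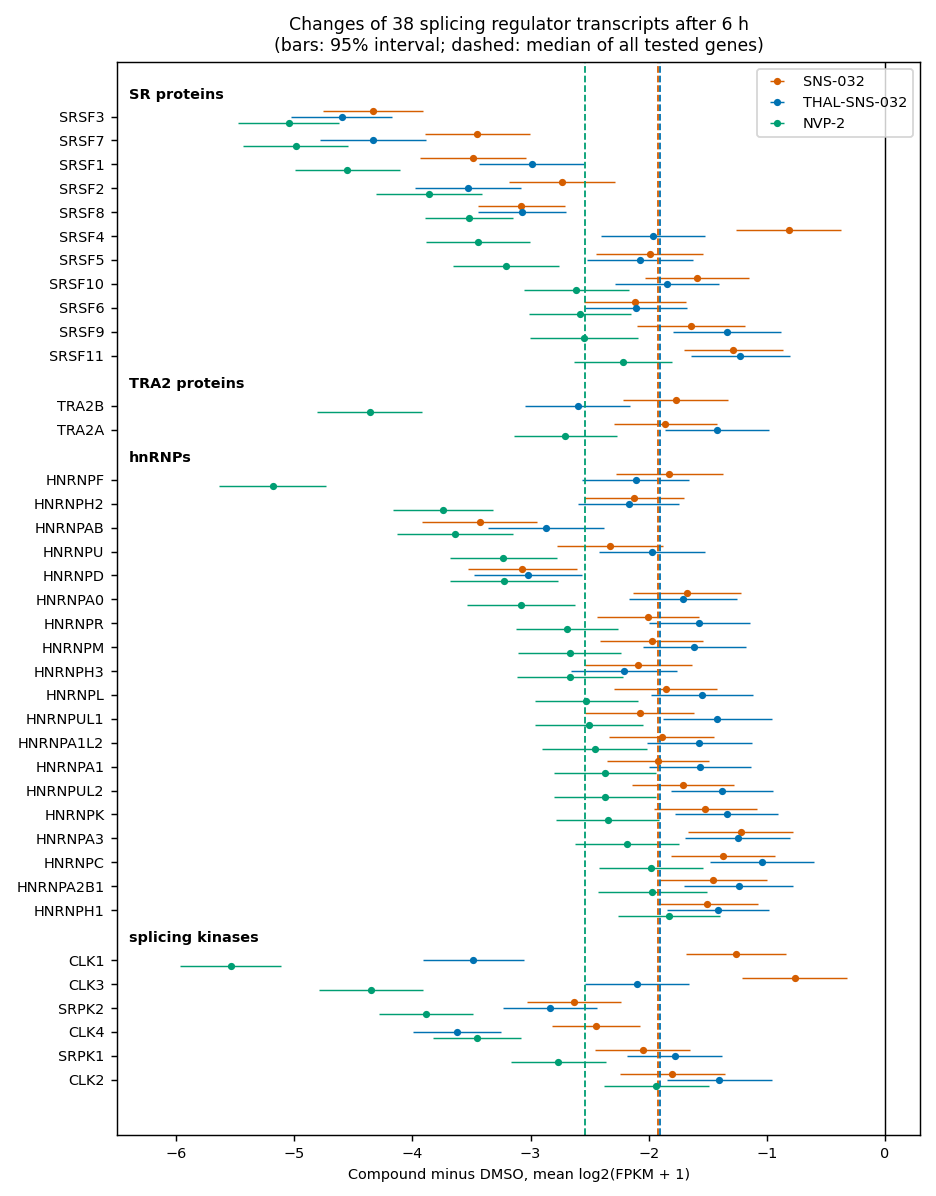
Change of each of the 38 tested members from DMSO (compound minus DMSO, mean log2(FPKM + 1), horizontal axis), by class, with 95% intervals; dashed lines are the medians of all 11381 tested genes for the compound of the same color. All points lie left of 0; SRSF3 and SRSF7 lie far below the medians with every compound, and CLK1, CLK3 and HNRNPF spread most widely between compounds.

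Among the SR proteins, SRSF3, SRSF7, SRSF1, SRSF2 and SRSF8 kept the smallest fractions of their DMSO level with every compound, while SRSF11 and SRSF9 kept more. The median change of the 11 tested SR proteins was -2.12 for SNS-032, -2.11 for THAL-SNS-032 and -3.45 for NVP-2. SRSF3, the smallest SR protein and an adaptor for mRNA export, had 16.4, 30.2 and 27.4 FPKM with SNS-032, 19.2, 20.6 and 19.4 FPKM with THAL-SNS-032 and 13.3, 15.4 and 13.9 FPKM with NVP-2, against 456, 509 and 543 FPKM in DMSO. Every library with a compound lay far below every DMSO library. Its change was -4.33 ± 0.20 with SNS-032 (adjusted p = 5.8e-11), -4.60 ± 0.20 with THAL-SNS-032 (adjusted p = 3.3e-11) and -5.05 ± 0.20 with NVP-2 (adjusted p = 7.0e-12), where ± is the SE of the limma fit. SRSF7, an SR protein with a zinc knuckle that also takes part in export, had 25.4, 48.2 and 42.3 FPKM with SNS-032, 18.8, 22.3 and 18.5 FPKM with THAL-SNS-032 and 11.2, 13.5 and 12 FPKM with NVP-2, against 384, 428 and 444 FPKM in DMSO. Its libraries fell into 4 separate levels, lowest with NVP-2, and it changed by -3.45 for SNS-032, -4.33 for THAL-SNS-032 and -4.99 for NVP-2.

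SRSF1, the founding SR protein and a splicing activator with oncogenic activity, had 21.9, 41.7 and 36.6 FPKM with SNS-032, 43.3, 50.7 and 43.7 FPKM with THAL-SNS-032 and 13.6, 16.4 and 14.8 FPKM with NVP-2, against 337, 377 and 402 FPKM in DMSO. With THAL-SNS-032 every library lay above every SNS-032 library, and the changes from DMSO were -3.49 for SNS-032, -2.99 for THAL-SNS-032 and -4.55 for NVP-2. SRSF2, whose gene carries recurrent mutations in myeloid neoplasms and whose DMSO level was the highest of the SR proteins, had 89.7, 156 and 153 FPKM with SNS-032, 67.8, 82.2 and 72.5 FPKM with THAL-SNS-032 and 55.7, 66.2 and 54.2 FPKM with NVP-2, against 771, 906 and 926 FPKM in DMSO. All THAL-SNS-032 libraries lay below all SNS-032 libraries and above all NVP-2 libraries. SRSF2 changed by -2.74 for SNS-032, -3.53 for THAL-SNS-032 and -3.86 for NVP-2.

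SRSF4, a long-tailed SR protein, had the largest difference between SNS-032 and NVP-2 within its class. It had 60.9, 110.0 and 102 FPKM with SNS-032, 36.5, 43.0 and 38.6 FPKM with THAL-SNS-032 and 12.3, 15.1 and 13.0 FPKM with NVP-2, against 140.3, 157 and 172 FPKM in DMSO. The 4 groups did not overlap, and it kept 58.1% of its DMSO level in SNS-032 libraries, 25.1% in THAL-SNS-032 libraries and 8.60% in NVP-2 libraries. SRSF9, a short-tailed member of the family, had 93.8, 175 and 161 FPKM with SNS-032, 159.5, 184 and 171 FPKM with THAL-SNS-032 and 69, 82.4 and 69.7 FPKM with NVP-2, against 388, 468 and 452 FPKM in DMSO. SRSF11, which differs from the classical SR proteins, had 77.8, 129.9 and 128 FPKM with SNS-032, 108, 122 and 111 FPKM with THAL-SNS-032 and 52.8, 61.1 and 56 FPKM with NVP-2, against 245, 271 and 284 FPKM in DMSO. The libraries with SNS-032 and THAL-SNS-032 overlapped for both genes and lay below DMSO. SRSF9 changed by -1.64 for SNS-032, -1.34 for THAL-SNS-032 and -2.55 for NVP-2, and SRSF11 by -1.28 for SNS-032, -1.22 for THAL-SNS-032 and -2.22 for NVP-2.

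The remaining tested SR proteins were between these. SRSF5 changed by -1.99 for SNS-032, -2.07 for THAL-SNS-032 and -3.21 for NVP-2. SRSF6 kept 23.4% of its DMSO level in SNS-032 libraries, 22.9% in THAL-SNS-032 libraries and 16.4% in NVP-2 libraries. SRSF10, known to turn from activator to repressor when dephosphorylated after heat shock, kept 34.0% of its DMSO level in SNS-032 libraries, 27.6% in THAL-SNS-032 libraries and 16.1% in NVP-2 libraries. SRSF8, a retrocopy of SRSF2, averaged 2.6 ± 0.870 FPKM for SNS-032, 2.55 ± 0.349 for THAL-SNS-032 and 1.59 ± 0.0725 for NVP-2, against 28.9 ± 3.27 in DMSO (SD, n = 3), and is uncertain because reads may be shared with SRSF2. SRSF12 stayed near the floor of the table in every library, at 0.0987 to 0.156 FPKM, and was not tested.

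TRA2A and TRA2B, homologs of the fly Transformer-2 protein that bind GA-rich exonic enhancers, were at similar levels in DMSO and separated with THAL-SNS-032 and NVP-2. TRA2A had 41, 75.3 and 66.8 FPKM with SNS-032, 74.9, 88.0 and 78.7 FPKM with THAL-SNS-032 and 29.6, 35.5 and 32.5 FPKM with NVP-2, against 197, 227 and 227 FPKM in DMSO. TRA2B had 51.4, 94.8 and 83.1 FPKM with SNS-032, 37.8, 45.9 and 40.4 FPKM with THAL-SNS-032 and 10.2, 12.8 and 11.5 FPKM with NVP-2, against 229, 263 and 275 FPKM in DMSO. With NVP-2 every TRA2B library lay below every TRA2A library, whereas in DMSO every TRA2B library lay slightly above every TRA2A library. The share of TRA2A in the sum of both genes was 44.4% ± 0.146 for SNS-032, 66.1% ± 0.364 for THAL-SNS-032 and 73.9% ± 0.428 for NVP-2, against 46.0% ± 0.610 in DMSO (SD, n = 3), and it does not depend on the scaling between libraries.

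**Figure D2:**
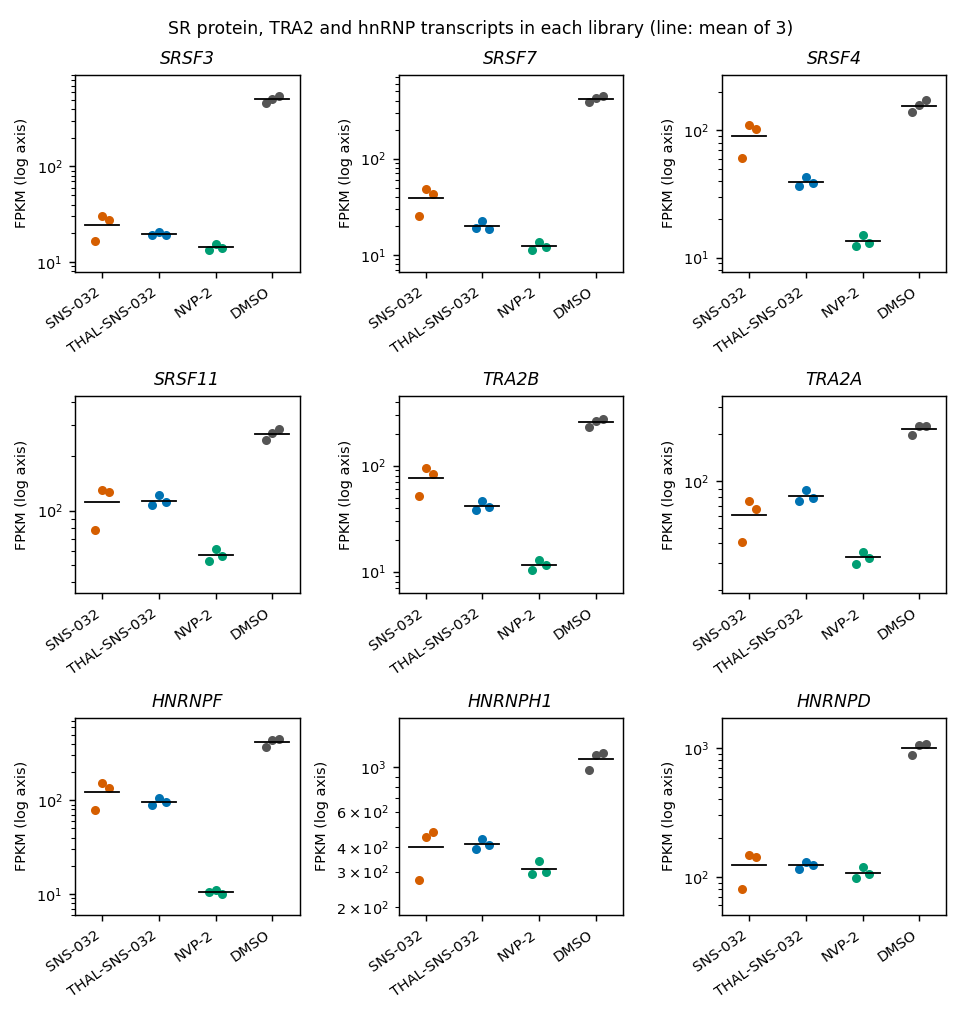
FPKM of 9 members in each library (log axis), with 3 points and a mean line per group for SNS-032, THAL-SNS-032, NVP-2 and DMSO. SRSF4 and TRA2B descend over the 4 groups without overlap, HNRNPF stands at 10.1 to 11.1 FPKM with NVP-2 only, and HNRNPD lies at similar levels with all 3 compounds.

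The hnRNPs changed by a median of -1.89 for SNS-032, -1.57 for THAL-SNS-032 and -2.53 for NVP-2 over 19 tested genes. The 3 most abundant, HNRNPA1, HNRNPA2B1 and HNRNPH1, kept a larger part of their RNA than SRSF3 or SRSF7 with every compound. HNRNPA1 had 474, 751 and 821 FPKM with SNS-032, 796, 943 and 820.2 FPKM with THAL-SNS-032 and 452, 543 and 466 FPKM with NVP-2, against 2228, 2668 and 2683 FPKM in DMSO. HNRNPA2B1, a homolog that also acts in RNA transport, had 357, 630.1 and 639 FPKM with SNS-032, 562, 660.1 and 611 FPKM with THAL-SNS-032 and 342, 414 and 350.3 FPKM with NVP-2, against 1257, 1538 and 1545 FPKM in DMSO. HNRNPH1, which binds runs of G, had 274, 447 and 474 FPKM with SNS-032, 389.7, 436 and 410.0 FPKM with THAL-SNS-032 and 291, 340.3 and 299 FPKM with NVP-2, against 975, 1154 and 1180 FPKM in DMSO. In all 3 genes SNS-032 replicate 1 was the lowest SNS-032 library by a wide margin, and every library with a compound lay below DMSO. HNRNPA1 changed by -1.92 for SNS-032, -1.56 for THAL-SNS-032 and -2.37 for NVP-2, HNRNPA2B1 by -1.46 for SNS-032, -1.24 for THAL-SNS-032 and -1.97 for NVP-2 and HNRNPH1 by -1.50 for SNS-032, -1.42 for THAL-SNS-032 and -1.83 for NVP-2.

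HNRNPF, a close relative of HNRNPH1 that also binds G runs, fell with NVP-2 to a level apart from all other groups. It had 79.2, 151 and 135 FPKM with SNS-032, 89.2, 104 and 95.6 FPKM with THAL-SNS-032 and 10.5, 11.1 and 10.1 FPKM with NVP-2, against 372, 442 and 448 FPKM in DMSO. The lowest library of the other groups, at 79.2 FPKM, lay far above the highest NVP-2 library, at 11.1 FPKM. Its change was -1.82 ± 0.21 with SNS-032 (adjusted p = 7.4e-07), -2.11 ± 0.21 with THAL-SNS-032 (adjusted p = 1.5e-07) and -5.18 ± 0.21 with NVP-2 (adjusted p = 8.8e-12), by limma. Within a library the ratio of HNRNPF to HNRNPH1 was 0.304 ± 0.0293 for SNS-032, 0.234 ± 0.00555 for THAL-SNS-032 and 0.0342 ± 0.00172 for NVP-2, against 0.381 ± 0.00195 in DMSO (SD, n = 3). HNRNPH2, another relative, averaged 8.44 ± 2.78 FPKM for SNS-032, 7.90 ± 0.559 for THAL-SNS-032 and 1.99 ± 0.127 for NVP-2, against 39.6 ± 8.96 in DMSO. HNRNPH3 changed by -2.09 for SNS-032, -2.21 for THAL-SNS-032 and -2.67 for NVP-2.

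HNRNPAB and HNRNPD fell most among the hnRNPs with SNS-032 and with THAL-SNS-032. HNRNPAB had 38.6, 77.8 and 65.7 FPKM with SNS-032, 80.1, 95.2 and 85.2 FPKM with THAL-SNS-032 and 47.6, 57.7 and 46.0 FPKM with NVP-2, against 539.9, 698 and 689.9 FPKM in DMSO. HNRNPD, also called AUF1, binds AU-rich elements in mRNA and is linked to their decay. It had 80.4, 146 and 142 FPKM with SNS-032, 115, 131 and 122 FPKM with THAL-SNS-032 and 97.5, 119 and 105 FPKM with NVP-2, against 886, 1053 and 1081 FPKM in DMSO. The libraries of the 3 compounds overlapped for HNRNPD, between 80.4 and 146 FPKM, far below the DMSO libraries. HNRNPAB changed by -3.43 for SNS-032, -2.87 for THAL-SNS-032 and -3.64 for NVP-2, and HNRNPD by -3.07 for SNS-032, -3.02 for THAL-SNS-032 and -3.22 for NVP-2. HNRNPU, a scaffold attachment factor, changed by -2.33 for SNS-032, -1.97 for THAL-SNS-032 and -3.23 for NVP-2.

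HNRNPC and HNRNPA3 were at the other end. HNRNPC, which binds U tracts and keeps Alu elements from being spliced as exons, had 269, 461 and 458 FPKM with SNS-032, 448, 524 and 481 FPKM with THAL-SNS-032 and 238, 282 and 238 FPKM with NVP-2, against 893, 1046 and 1061 FPKM in DMSO. It kept 39.6% of its DMSO level in SNS-032 libraries, 48.4% in THAL-SNS-032 libraries and 25.3% in NVP-2 libraries, and its change with THAL-SNS-032, -1.04 ± 0.21 (adjusted p = 1.8e-04, limma), was the smallest of the 38 members. HNRNPA3 had 94.3, 165 and 161 FPKM with SNS-032, 127, 143 and 131 FPKM with THAL-SNS-032 and 64.7, 76.5 and 67.3 FPKM with NVP-2, against 282, 329 and 348 FPKM in DMSO. It changed by -1.22 for SNS-032, -1.25 for THAL-SNS-032 and -2.18 for NVP-2. HNRNPK, which binds C-rich RNA, kept 35.7% of its DMSO level in SNS-032 libraries, 39.3% in THAL-SNS-032 libraries and 19.5% in NVP-2 libraries. Of the other hnRNPs, HNRNPL, which binds CA repeats, changed by -1.86 for SNS-032, -1.55 for THAL-SNS-032 and -2.53 for NVP-2. HNRNPM changed by -1.98 for SNS-032, -1.61 for THAL-SNS-032 and -2.67 for NVP-2, HNRNPR by -2.01 for SNS-032, -1.57 for THAL-SNS-032 and -2.69 for NVP-2, HNRNPA0 by -1.67 for SNS-032, -1.71 for THAL-SNS-032 and -3.08 for NVP-2 and HNRNPUL2 by -1.71 for SNS-032, -1.38 for THAL-SNS-032 and -2.37 for NVP-2.

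HNRNPA1L2, an intronless copy of HNRNPA1, is uncertain. Its ratio to HNRNPA1 stayed between 0.340 and 0.396 in all 12 libraries, and it kept 27.6% of its DMSO level in SNS-032 libraries, 33.5% in THAL-SNS-032 libraries and 18.1% in NVP-2 libraries. Its DMSO mean was 935 ± 102 FPKM (SD, n = 3). The pseudogene HNRNPA1P10, set aside by the rule, averaged 448 for SNS-032, 498 for THAL-SNS-032 and 244 FPKM for NVP-2, against 1322 FPKM in DMSO, so reads of HNRNPA1 may be split between copies. How the authors' counting treated such reads is not given in the sources used here. HNRNPCL1 stayed at 0.0889 to 0.121 FPKM in every library and was not tested.

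Among the splicing kinases, CLK1 and CLK3 stood at a different level in each of the 4 groups, while CLK2 lay between 14.4 and 31.3 FPKM with all 3 compounds. The 6 tested kinases had a median change of -1.93 for SNS-032, -2.47 for THAL-SNS-032 and -3.67 for NVP-2. CLK1, a dual-specificity kinase of SR proteins whose own transcript is regulated by intron retention, had 37.2, 69.4 and 63.0 FPKM with SNS-032, 11, 11.2 and 10.6 FPKM with THAL-SNS-032 and 1.64, 1.98 and 2.0 FPKM with NVP-2, against 123, 140.3 and 135 FPKM in DMSO. The groups formed 4 separate levels. Its change was -1.26 ± 0.20 with SNS-032 (adjusted p = 2.0e-05), -3.48 ± 0.20 with THAL-SNS-032 (adjusted p = 3.2e-10) and -5.54 ± 0.20 with NVP-2 (adjusted p = 4.7e-12), by limma, and the NVP-2 change was the lowest of all members. CLK3 had 28.9, 56.1 and 49.1 FPKM with SNS-032, 15.9, 17.5 and 16.1 FPKM with THAL-SNS-032 and 2.45, 3.09 and 2.48 FPKM with NVP-2, against 67.4, 75.8 and 78.7 FPKM in DMSO. It showed the same order of 4 levels, and its change of -0.76 ± 0.21 with SNS-032 (adjusted p = 0.0025, limma) was the smallest of all members there.

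CLK2, a paralog of CLK1, kept 28.7% of its DMSO level in SNS-032 libraries, 37.0% in THAL-SNS-032 libraries and 25.1% in NVP-2 libraries. It had 14.4, 26.7 and 25.8 FPKM with SNS-032, 26.6, 31.3 and 28.4 FPKM with THAL-SNS-032 and 17.8, 21.0 and 19.9 FPKM with NVP-2, against 68.0, 82.0 and 83.5 FPKM in DMSO. Its SNS-032 libraries overlapped those of THAL-SNS-032 and NVP-2, and it changed by -1.80 for SNS-032, -1.40 for THAL-SNS-032 and -1.94 for NVP-2, the last of these among the 2 smallest falls of any member with NVP-2. Within a library the ratio of CLK1 to CLK2 was 2.54 ± 0.0844 for SNS-032, 0.381 ± 0.0296 for THAL-SNS-032 and 0.0955 ± 0.00447 for NVP-2, against 1.71 ± 0.0966 in DMSO (SD, n = 3). The ratio of CLK3 to CLK2 was 2.0 ± 0.0969 for SNS-032, 0.574 ± 0.0216 for THAL-SNS-032 and 0.136 ± 0.0113 for NVP-2, against 0.953 ± 0.0339 in DMSO. Neither ratio depends on the scaling between libraries. CLK4 had 2.27, 4.77 and 3.72 FPKM with SNS-032, 1.02, 1.05 and 0.860 FPKM with THAL-SNS-032 and 1.1, 1.23 and 1.36 FPKM with NVP-2, against 24.3, 21.6 and 24.2 FPKM in DMSO. It was lower with THAL-SNS-032 and NVP-2 than with SNS-032 without overlap, and changes at such levels are understated on the log2(FPKM + 1) scale.

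SRPK1, the founding member of the SR protein kinases, had 17.5, 28.8 and 29 FPKM with SNS-032, 28.5, 32.3 and 28.6 FPKM with THAL-SNS-032 and 13.3, 16.0 and 14.5 FPKM with NVP-2, against 99.1, 104 and 111 FPKM in DMSO. SRPK2 had 14.2, 24.3 and 23.3 FPKM with SNS-032, 16.7, 18.8 and 16.4 FPKM with THAL-SNS-032 and 7.33, 8.31 and 7.87 FPKM with NVP-2, against 123, 129.6 and 137 FPKM in DMSO. SRPK1 changed by -2.05 for SNS-032, -1.78 for THAL-SNS-032 and -2.76 for NVP-2, and SRPK2 by -2.63 for SNS-032, -2.84 for THAL-SNS-032 and -3.89 for NVP-2, so SRPK2 kept less than SRPK1 with every compound. For both genes the SNS-032 and THAL-SNS-032 libraries overlapped and the NVP-2 libraries lay below both. SRPK3, known from muscle, averaged 0.718 ± 0.189 FPKM for SNS-032, 0.679 ± 0.100 for THAL-SNS-032 and 0.523 ± 0.0136 for NVP-2, against 1.65 ± 0.399 in DMSO, and was not tested.

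**Figure D3:**
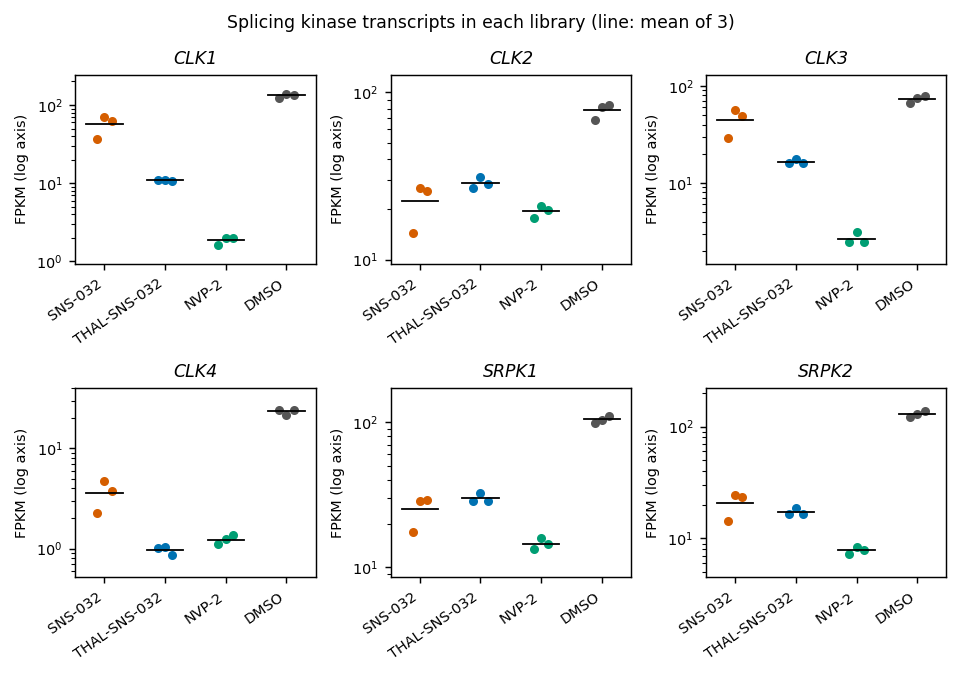
FPKM of the 6 tested kinases in each library (log axis), with 3 points and a mean line per group for SNS-032, THAL-SNS-032, NVP-2 and DMSO. CLK1 and CLK3 step down from DMSO over SNS-032 and THAL-SNS-032 to NVP-2, whereas CLK2 lies between 14.4 and 31.3 FPKM with all 3 compounds.

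The 3 pairs of compounds were compared at the same 250 nM and 6 h. THAL-SNS-032 and SNS-032 differ by the linker and cereblon ligand. Of the 38 members, THAL-SNS-032 gave 7 a lower level than SNS-032 did, against 16.7% of all tested genes, and 1 a higher level, against 13.4%. The 7 were CLK1 (-2.22), CLK3 (-1.33), CLK4 (-1.18), SRSF4 (-1.15), SRSF7 (-0.88), TRA2B (-0.83) and SRSF2 (-0.79), as differences in mean log2(FPKM + 1). They comprise 3 of 6 kinases, 3 of 11 SR proteins, 1 of 2 TRA2 proteins and 0 of 19 hnRNPs, and these 7 were the members whose THAL-SNS-032 libraries all lay below the SNS-032 libraries, beside 15.9% of all tested genes. The libraries lay above without overlap for 5 members, SRSF1, HNRNPAB, HNRNPM, HNRNPR and HNRNPUL1, beside 25.5% of all tested genes. Without SNS-032 replicate 1 the first of these counts was 19, beside 38.2% of all tested genes, and the second stayed at 5, beside 25.5%. The second count was 10 without SNS-032 replicate 2 and 11 without THAL-SNS-032 replicate 1, beside 35.4% and 31.4% of all tested genes. The CLK1 difference had a 95% interval of -2.65 to -1.80 (adjusted p = 1.7e-06, limma) and was the only one whose interval lay wholly beyond 2-fold, a property of 4.34% of all tested genes. The higher member was HNRNPUL1, with 40, 72.2 and 70.1 FPKM with SNS-032, 87.6, 103 and 90.4 FPKM with THAL-SNS-032 and 41.1, 47.1 and 42.2 FPKM with NVP-2, against 212, 272 and 275 FPKM in DMSO. It differed by 0.66 (95% interval 0.20 to 1.12, adjusted p = 0.031, limma), and it was not called when any THAL-SNS-032 library was left out.

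For 29 members, against 76.9% of all tested genes, the 95% interval stayed inside 2-fold. These were 17 of 19 hnRNPs, 8 of 11 SR proteins, 1 of 2 TRA2 proteins and 3 of 6 kinases. HNRNPA1 differed by 0.36 (interval -0.07 to 0.79), SRSF3 by -0.27 (interval -0.69 to 0.16) and SRPK1 by 0.27 (interval -0.13 to 0.68). Without SNS-032 replicate 1 the lower members numbered 13, beside 30% of all tested genes, and 1 was higher, beside 13.1%. Intervals then lay beyond 2-fold for 4 members and within it for 31, beside 7.64% and 81.1% of all tested genes. The 6 added lower members were HNRNPF (-0.57), SRSF3 (-0.52), SRSF10 (-0.52), SRPK2 (-0.44), HNRNPH3 (-0.40) and SRSF5 (-0.36), and CLK1 then differed by -2.49.

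**Figure D4:**
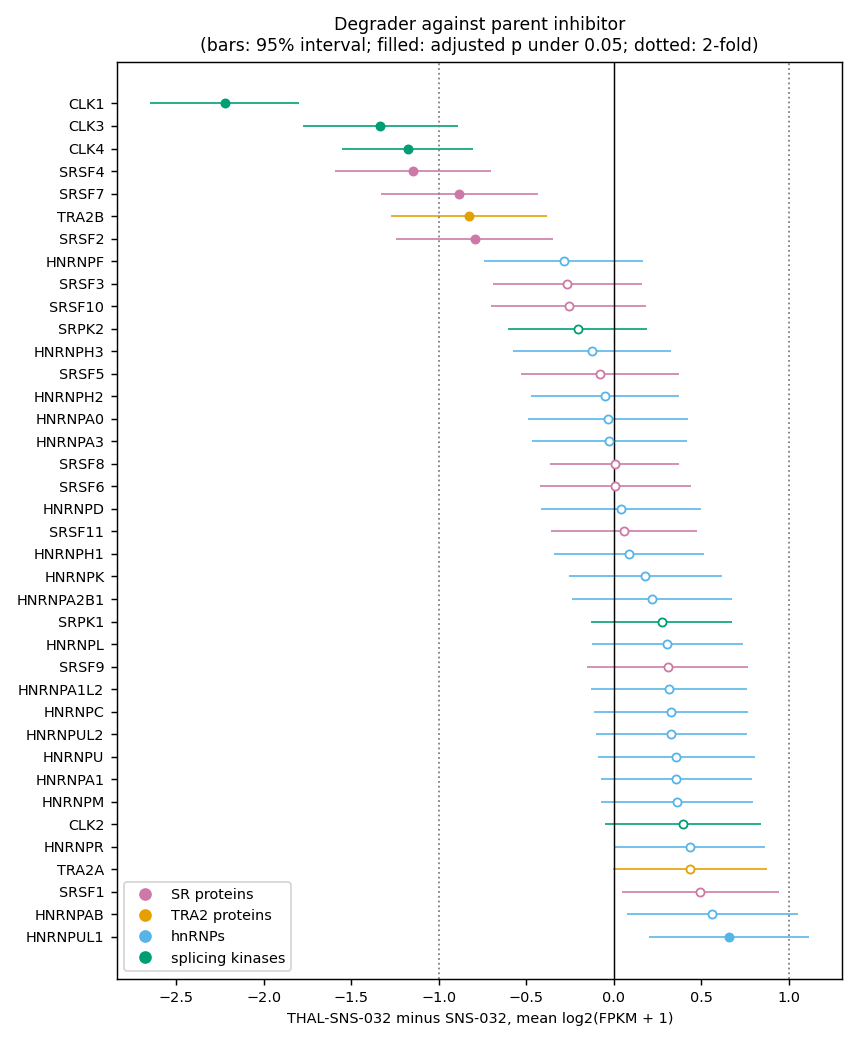
Difference between THAL-SNS-032 and SNS-032 for each of the 38 tested members (mean log2(FPKM + 1), horizontal axis), with 95% intervals, colored by class; filled points have an adjusted p under 0.05 and dotted lines mark 2-fold. The 7 filled points left of 0 are CLKs, SR proteins and TRA2B, and all hnRNPs lie between -0.29 and 0.66.

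Against NVP-2, no member was lower with THAL-SNS-032 in the limma fit, at an adjusted or an unadjusted p under 0.05, and 32 were higher, beside 0.993% and 70% of all tested genes. CLK4 was the only member whose THAL-SNS-032 libraries all lay below the NVP-2 libraries, beside 2.49% of all tested genes, at a difference of -0.17 (interval -0.55 to 0.20), and it was called lower in a fit of the 6 libraries alone. The differences were largest for HNRNPF at 3.07 ± 0.21 (adjusted p = 2.5e-07), CLK3 at 2.25 ± 0.21 (adjusted p = 3.2e-06) and CLK1 at 2.05 ± 0.20 (adjusted p = 5.0e-06). Intervals lay beyond 2-fold for 7 members and within 2-fold for 9, beside 5.73% and 46.4% of all tested genes. Without SNS-032 replicate 1, which enters the shared estimate of spread, these counts were 0 lower, 36 higher, 10 beyond and 12 within 2-fold, beside 2.04%, 80.1%, 10.4% and 61.3% of all tested genes. HNRNPD was among the 9 members within 2-fold in the fit of all 12 libraries, at 0.20 (interval -0.26 to 0.66).

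No member was lower with SNS-032 than with NVP-2 in the limma fit, at an adjusted or an unadjusted p under 0.05, and 30 were higher, beside 0.782% and 52.6% of all tested genes. CLK1 differed by 4.28 ± 0.20, CLK3 by 3.59 ± 0.21, HNRNPF by 3.36 ± 0.21, SRSF4 by 2.63 ± 0.21 and TRA2B by 2.59 ± 0.21, while CLK2 differed by 0.14 (interval -0.31 to 0.58). Intervals lay beyond 2-fold for 7 members, beside 13.5% of all tested genes, and within 2-fold for 9, beside 57.5%. Leaving out SNS-032 replicate 1 gave 0 lower and 38 higher members, beside 0.76% and 81.3% of all tested genes, and 14 intervals beyond and 8 within 2-fold, beside 22.3% and 52.9%. The 3 compounds share the DMSO libraries, and the pairs share compound libraries, so these counts are not independent.

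An order of DMSO above SNS-032 above THAL-SNS-032 above NVP-2, with no overlap between neighbors, was found for 6 of the 38 members, SRSF2, SRSF4, SRSF7, TRA2B, CLK1 and CLK3, and for 10.4% of all tested genes. The 6 comprise 3 of 11 SR proteins, 1 of 2 TRA2 proteins, 2 of 6 kinases and 0 of 19 hnRNPs. This count rested on SNS-032 replicate 1: without that library 17 members followed the order, beside 27.5% of all tested genes. The 17 comprise 8 of 11 SR proteins, 1 of 2 TRA2 proteins, 3 of 6 kinases and 5 of 19 hnRNPs, among the added ones SRSF3, SRPK2, HNRNPF and HNRNPH1. In CLK4 the lowest group was THAL-SNS-032.

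Changes relative to the median gene were obtained by subtracting from each library the median difference of all tested genes from DMSO. On this scale 13 members were below and 14 above the median gene with SNS-032, beside 41.5% and 40.9% of all tested genes. With THAL-SNS-032 these were 16 and 18, beside 41.9% and 41.9%, and with NVP-2 21 and 8, beside 42.7% and 42.4%. The split depended on the pseudocount: a value of 0.1 FPKM gave 10 and 24 with SNS-032, 11 and 21 with THAL-SNS-032 and 18 and 20 with NVP-2, and a value of 5 FPKM gave 27 and 4, 22 and 2, and 34 and 0 in the same order, while each of these shares of all tested genes lay between 41.3% and 43.8%. Of 90 calls against DMSO, 51 changed sign under at least 1 alternative. Between compounds, 11 members were below and 17 above for THAL-SNS-032 minus SNS-032 (27.1% and 42% of all tested genes), 8 and 24 for THAL-SNS-032 minus NVP-2 (31.9% and 34.8%), and 7 and 20 for SNS-032 minus NVP-2 (45.3% and 30.9%).

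SNS-032 left 10 members (26.3%) below the median gene under every alternative in which they were tested, beside 27.8% of all tested genes. THAL-SNS-032 left 11 (28.9%), beside 26.5%, and NVP-2 left 17 (44.7%), beside 26.1%. These shares are not matched for level, as the median in DMSO was 342 FPKM for tested members and 28.0 FPKM for all tested genes. The part of level in the NVP-2 share was not tested. No member was above the median gene under every alternative, beside 3.10%, 2.83% and 1.57% of all tested genes in the same order. The alternative without a filter fixed this count. Its reference, the median change of all genes, was -0.53, -0.52 and -0.78 in that order, above the change of every tested member. Under all other alternatives SRSF4, HNRNPA3, CLK1 and CLK3 stayed above with SNS-032, SRSF11 and HNRNPC with THAL-SNS-032, and none with NVP-2. The share of all tested genes for this was not computed. SRSF1, SRSF2, SRSF3, SRSF7, SRSF8, HNRNPAB, HNRNPD, CLK4 and SRPK2 were below the median gene with all 3 compounds under every alternative in which they were tested. How many of all tested genes met this with all 3 compounds was not computed, so the list is not shown to be particular to the members. SRSF3 lay -2.41 from the median gene for SNS-032, -2.70 for THAL-SNS-032 and -2.51 for NVP-2. HNRNPF lay -2.64 and TRA2B -1.82 from it with NVP-2. CLK1 lay 0.66 from the median gene for SNS-032, -1.58 for THAL-SNS-032 and -3.0 for NVP-2, and CLK3 lay 1.16 from it with SNS-032 and -1.81 with NVP-2. Without a filter on low genes the reference itself moved, from a median change of -1.92 to -0.53 with SNS-032. Against that reference both were negative with SNS-032, CLK1 at -0.72 and CLK3 at -0.22.

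The make-up of the group, which does not depend on the scaling between libraries, held a larger hnRNP share in every library with a compound than in every DMSO library. The share of SR proteins in the summed FPKM of the 41 members was 16.5% ± 0.440 for SNS-032, 13.2% ± 0.0409 for THAL-SNS-032 and 12.7% ± 0.102 for NVP-2, against 21.5% ± 0.424 in DMSO (SD, n = 3). The hnRNP share was 77.3% ± 0.744 for SNS-032, 82.6% ± 0.0686 for THAL-SNS-032 and 84.2% ± 0.221 for NVP-2, against 73.0% ± 0.578 in DMSO. The kinase share was 3.46% ± 0.141 for SNS-032, 1.95% ± 0.0409 for THAL-SNS-032 and 1.65% ± 0.0677 for NVP-2, against 2.96% ± 0.121 in DMSO, and the TRA2 share was 2.75% ± 0.168 for SNS-032, 2.26% ± 0.0289 for THAL-SNS-032 and 1.5% ± 0.0548 for NVP-2, against 2.57% ± 0.0371 in DMSO. In each class the libraries with a compound did not overlap DMSO, except those with SNS-032 in the TRA2 share. The exact two-sided permutation p was 0.1 for each of these differences, the smallest that 3 against 3 can give, except 0.2 for the TRA2 share with SNS-032, over 12 such comparisons. None of these differences changed direction without HNRNPA1L2, which may share reads with HNRNPA1, or without the highest member of each class. This compares directions only and not sizes.

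**Figure D5:**
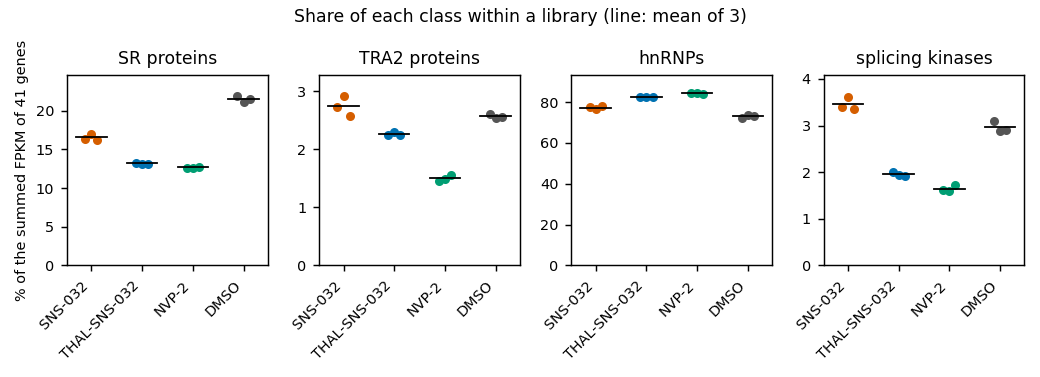
Share of each class in the summed FPKM of the 41 members (percent, axes from 0), with 3 points and a mean line per group for SNS-032, THAL-SNS-032, NVP-2 and DMSO. The hnRNP share is above DMSO and the SR protein share below it with every compound, and the kinase share is above DMSO with SNS-032 and below it with THAL-SNS-032 and NVP-2.

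Within the SR proteins, SRSF3 made up 2.98% ± 0.0620 for SNS-032, 2.79% ± 0.104 for THAL-SNS-032 and 3.82% ± 0.0677 for NVP-2, against 12.7% ± 0.199 in DMSO (SD, n = 3). SRSF11 made up 13.6% ± 0.480 for SNS-032, 16.0% ± 0.153 for THAL-SNS-032 and 15.3% ± 0.353 for NVP-2, against 6.76% ± 0.0957 in DMSO. SRSF9, the largest part of the class with each compound, made up 17.3% ± 0.359 for SNS-032, 24.2% ± 0.346 for THAL-SNS-032 and 19.8% ± 0.365 for NVP-2, against 11% ± 0.410 in DMSO, while in DMSO SRSF2 was the largest at 21.9% ± 0.371. The ratio of SRSF3 to SRSF11 was 0.220 ± 0.0113 for SNS-032, 0.174 ± 0.00489 for THAL-SNS-032 and 0.251 ± 0.00179 for NVP-2, against 1.88 ± 0.0262 in DMSO. Within the kinases, CLK2 made up 12.8% ± 0.374 for SNS-032, 27.4% ± 0.762 for THAL-SNS-032 and 40.5% ± 0.357 for NVP-2, against 14.3% ± 0.732 in DMSO, and CLK1 made up 32.5% ± 0.317 for SNS-032, 10.4% ± 0.546 for THAL-SNS-032 and 3.87% ± 0.216 for NVP-2, against 24.4% ± 0.871 in DMSO.

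Other splicing regulators also fell. All 28 other SR-rich and SR-related factors fell with SNS-032 and with NVP-2, and 26 of 28 fell with THAL-SNS-032. Of 41 tested RNA-binding splicing regulators, 40, 41 and 41 fell in the same order, and of 21 kinases, phosphatases and importers of splicing factors 20, 21 and 21 fell. None of these rose, and the shares that fell are near the 94.6%, 94.8% and 97.1% of all tested genes. The median change of the SR-related factors was -1.47 for SNS-032, -2.08 for THAL-SNS-032 and -3.01 for NVP-2, beside -1.92, -1.90 and -2.54 over all tested genes. In the same order it was -2.02, -1.78 and -2.69 for the RNA-binding splicing regulators. For the kinases, phosphatases and importers it was -1.92, -2.27 and -2.68. CCNL2, a cyclin found in splicing speckles, changed by -0.68 with SNS-032 and -1.43 with NVP-2, and its difference with THAL-SNS-032, -0.19 (adjusted p = 0.38, limma), was not called. PPP1R8, a nuclear regulator of protein phosphatase 1, changed by -4.47 for THAL-SNS-032 and -5.40 for NVP-2. It kept 25.1% of its DMSO level in SNS-032 libraries, 3.53% in THAL-SNS-032 libraries and 1.34% in NVP-2 libraries. HNRPDL changed by -2.92 with SNS-032 and -3.79 with THAL-SNS-032. It kept 13.3% of its DMSO level in SNS-032 libraries, 6.96% in THAL-SNS-032 libraries and 5.04% in NVP-2 libraries. CDK12, a kinase of the RNA polymerase II tail, changed by -2.24 for SNS-032, -2.79 for THAL-SNS-032 and -2.78 for NVP-2, and its relative CDK13 by -2.50, -2.83 and -3.42 in that order.

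Gene properties not used by the rule were set beside the changes across the 38 members, which are not independent replicates and share the same libraries. Gene length in GENCODE 29 had Pearson's r of 0.02 (Spearman's rho 0.34) with the change with SNS-032, 0.01 (rho 0.31) with THAL-SNS-032 and -0.03 (rho 0.14) with NVP-2. The number of transcripts annotated for nonsense-mediated decay had r of -0.21 (rho -0.16), -0.31 (rho -0.30) and -0.24 (rho -0.28) in the same order. The log2 DMSO level had r of -0.03 (rho -0.005), 0.22 (rho 0.24) and 0.26 (rho 0.31). SRPK2, the longest member gene at 289 kb, changed by -2.63 for SNS-032, -2.84 for THAL-SNS-032 and -3.89 for NVP-2, and SRSF7, at 7.90 kb, changed by -3.45 for SNS-032, -4.33 for THAL-SNS-032 and -4.99 for NVP-2.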

How the data were processed

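RNA was measured by poly(A)-selected, stranded sequencing in 12 libraries of MOLT4 cells, with spike-in RNA (ERCC) added at lysis, per the labels' protocols. Reads were aligned with HISAT to hg19 and FPKM was computed with Cufflinks 2.0.0, per the submitters' processing notes. The annotation, the read counting and the step that levelled the spike-ins are not given in the sources used here. The deposited values are FPKM per gene and hold no counts, which leaves depth and counting error unknown.

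The table has 23713 entries, from which 92 spike-ins and 2 duplicated symbols were dropped. The 11381 genes averaging at least 1 FPKM were fitted with limma 3.58.1 (R 4.3.3, trend) on log2(FPKM + 1) over all 4 groups, with 8 residual degrees of freedom, two-sided tests and Benjamini-Hochberg adjustment over these genes. This scale understates changes of low genes. A fit relative to the median gene and exact permutation tests of class shares (scipy 1.17.1) were added. The fit was tested on simulated data. Intervals of differences between compounds were set against 2-fold.

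The members, lists, tests and alternatives were chosen with earlier results of these data known. Named are the most abundant members of each class, the largest and smallest changes, the largest differences between compounds, all tested CLKs and SRPKs, and for other lists the 2 lowest and 2 highest changes per comparison, CDK12 and CDK13; every other member is accounted for. The promoters shown were picked after values were seen. Alternatives changed the pseudocount, the filter, the scaling, the limma settings, the libraries and the replicate block. Protein sequences were not analysed here. Figures were drawn with matplotlib 3.10.9.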

Additional observations from a re-analysis of the deposited data

How the results depend on the processing

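Of 5966 values recomputed under other settings, 5820 were rated the same, 93 counts or medians moved, 29 gained a call, 14 lost one and 10 reversed. The same meant, for a single gene, an unchanged direction and side of the threshold. A count was rated the same within 1.5-fold of the main count, so it could still differ. A median was rated the same within the SD of the library medians of the compound named first, and a class share if its direction held. All tested members fell with each compound under every alternative run (35 members with a filter at 20 FPKM), except that 40 of 41 fell without a filter. The cause of each move below was not tested. The joint change of pseudocount and filter, class shares without HNRNPA1L2, and orders of libraries with a library left out, were chosen after seeing the data.

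THAL-SNS-032 against SNS-032: the members called higher (1) numbered 0 without a filter and in a fit of the 6 libraries alone, 2 with robust limma, and 0 to 4 with a library left out. With a library left out, the lower members (7) numbered 7 to 13 and the intervals beyond 2-fold (1) 1 to 4. The members below or above without overlap (7 and 5) numbered 7 to 19 and 5 to 11, and those in the order of all 4 groups (6) numbered 6 to 17. A margin of 1.5-fold left 10 intervals within it and 4 beyond, and a pseudocount of 0.1 gave 2 beyond 2-fold. SRSF6 reversed to -0.25 without SNS-032 replicate 1 and to -0.03 without THAL-SNS-032 replicate 2.

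THAL-SNS-032 against NVP-2: 1 member was lower in the fit of 6 libraries, 1 interval lay within 1.5-fold and 16 beyond, and 5 to 12 lay within 2-fold with a library left out. SNS-032 against NVP-2: 1 interval lay within 1.5-fold and 13 beyond, and with a library left out 5 to 14 lay within 2-fold and 6 to 14 beyond. With a library left out, CLK2 ranged from -0.0127 (without SNS-032 replicate 2) to 0.41, and HIPK1 with SNS-032 against DMSO from -0.24 to 0.14 (without SNS-032 replicate 1).

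Relative to the median gene, SNS-032 against DMSO had 27 below and 4 above with a pseudocount of 5, 24 above with a pseudocount of 0.1, 36 below and 2 above without a filter, 24 above with libraries centred on their own medians, and 22 below and 8 above with quantile normalization. THAL-SNS-032 against DMSO had 2 above with a pseudocount of 5, 38 below and 2 above without a filter, and 9 above with quantile normalization. NVP-2 against DMSO had 34 below and 0 above with a pseudocount of 5, 38 below and 2 above without a filter, and 20 above with a pseudocount of 0.1. It had 19 above with a filter at 5 FPKM, 18 at 20 FPKM, 19 at 20 FPKM with a pseudocount of 0.1, and 20 with libraries centred on their own medians. THAL-SNS-032 against SNS-032 had 7 below and 5 above without a filter. THAL-SNS-032 against NVP-2 had 3 below with a pseudocount of 5 and without a filter, 13 below and 14 above with a pseudocount of 0.1 and a filter at 20 FPKM, and 5 to 8 below with a library left out. SNS-032 against NVP-2 had 12 below with a pseudocount of 0.1 and with a filter at 5 FPKM, 17 at 20 FPKM with either pseudocount, 3 with a pseudocount of 5, 2 without a filter, 13 with own medians, 18 with quantile normalization and 4 to 8 with a library left out. Without a filter, the relative change reversed for SRSF4 (-0.27), CLK1 (-0.72) and CLK3 (-0.22) with SNS-032, HNRNPC (-0.52) with THAL-SNS-032, and HNRNPH1 (-1.04) and CLK2 (-1.15) with NVP-2.

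Libraries of the same number share only that number in the labels. Across genes their deviations from group means had correlations of -0.15 to 0.17, a measure blind to a shift common to all genes. Replicate 1 had the lowest median of all tested genes in each group, at -2.32 with SNS-032, -1.96 with THAL-SNS-032, -2.61 with NVP-2 and -0.083 in DMSO. The correlations therefore cannot decide whether the numbers pair the libraries. With the number as a replicate block, THAL-SNS-032 gave 5 members a called level above SNS-032.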
